A study of Mus musculus with 12 samples.

Results

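The 6 tumours described here came from CR705, an established line of pancreatic cancer from the mouse, in its wild-type (WT) form, in which the aryl hydrocarbon receptor gene was intact. They are 6 of the 12 bulk RNA-seq libraries of the series, and the 6 libraries of receptor-knockout tumours were not used. The members were chosen by genotype and line alone, as the labels give them, so no measured value entered the choice. RNA came from about 100 mg of each tumour. The labels name no host strain, sex, age, implantation site or time of harvest. The protocol texts also mention test compounds on cultured cells, but no sample label names a compound. CR705 is a single line, so the 6 tumours share its genotype, and nothing in the labels says that each tumour came from a separate animal.

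Pancreatic ductal adenocarcinoma is a tumour of duct-like epithelial cells that is known for its dense stroma, in which fibroblasts lay down collagen around the cancer cells and in which macrophages are common. A classical and a basal-like expression subtype of the epithelium are commonly described. The classical subtype expresses endodermal transcription factors and gastrointestinal differentiation genes, and the basal-like subtype expresses squamous keratins and related genes. A bulk profile mixes cancer cells with host cells, and in such a profile fewer cells of a type and less RNA per cell cannot be told apart.

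Library totals were 23901486, 35881469, 21864362, 19293174, 19764596 and 20388593 counts in tumours WT_1 to WT_6. Of 43432 genes in the table, 14419 passed a filter on low counts that required reads in every tumour. Levels of a gene across tumours are given as CPM, the counts scaled to a common library total after adjustment by the trimmed mean of M-values (TMM), which allows for differences in composition. Levels of different genes are compared only per length, as CPM divided by exon length and rescaled to a common total (TPM-like units). A count of 0 allows a level of up to 0.0872 CPM in the deepest library and 0.152 CPM in the shallowest, from counting error alone.

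The most heavily counted gene in the mean of the 6 tumours was Clu (clusterin, a secreted chaperone; chr14:65968483-65981547, mm10). Its level was 15288, 10424, 10022, 13305, 10956 and 12436 CPM in WT_1 to WT_6. It was highest in WT_1 and lowest in WT_3. Fibrillar collagen came next: Col1a1 stood at 6330, 14531, 14820, 6623, 10773 and 8936 CPM, and Col3a1 and Col1a2 followed. For Col1a1, WT_2 and WT_3 were the 2 highest and WT_1 and WT_4 the 2 lowest, with the lowest and highest tumours 2.34-fold apart. The other leading genes were a mixture of matrix genes (Fn1, Tnc, Sparc), the secreted phosphoprotein Spp1 (osteopontin), and the translation and glycolysis genes that most growing cells express (Eef1a1, Eef2, Gapdh, Pkm). Between 6.07% and 7.75% of a library's counts fell in its 10 leading genes. The 37 mitochondrial genes had 0 counts in all 6 tumours, so these ranks and shares leave out mitochondrial transcripts.

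**Figure D1:**
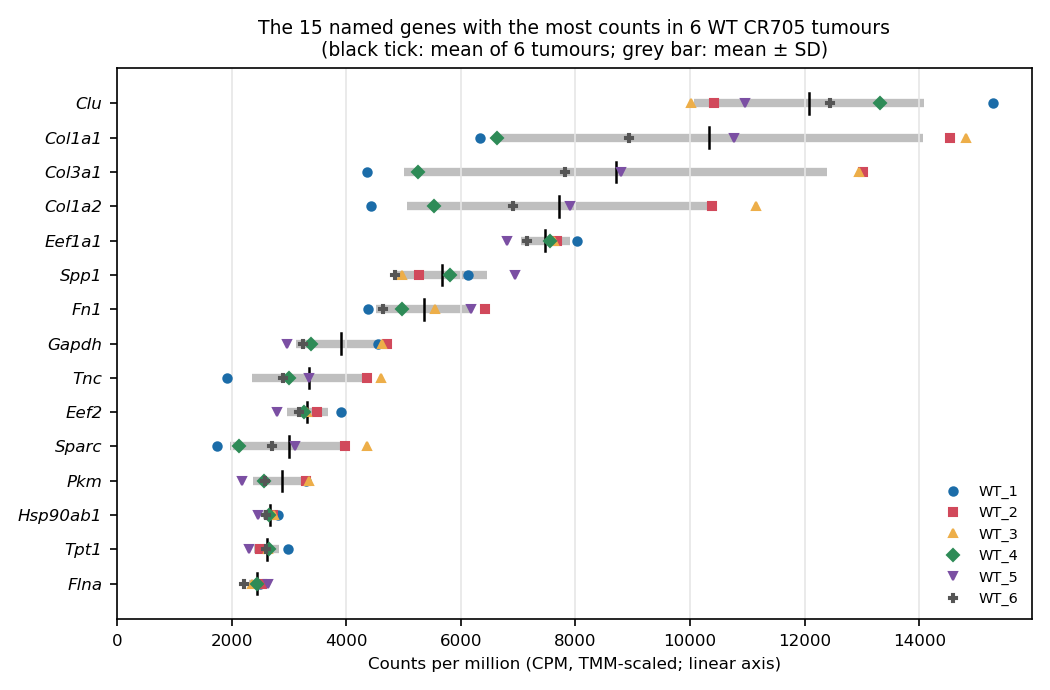
Levels of the 15 named genes with the most counts in the 6 WT tumours, in CPM on a linear axis, with 1 symbol per tumour, the mean as a tick and the SD as a bar. The 4 genes at the top are Clu and 3 fibrillar collagen genes, and WT_2 and WT_3 lie to the right for each collagen.

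Per length, the order of these genes changed. Clu stood at 12697 ± 2190 and Spp1 at 12452 ± 2160 TPM-like units (SD, n = 6), and Col1a1, whose transcript is long, at 5659 ± 1920. Spp1 varied little between tumours in CPM, from 4845 in WT_6 to 6944 in WT_5. Duct cells, macrophages and fibroblasts of pancreatic tumours can all express Spp1, and a bulk level does not assign it to any of them.

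The tumours carried a ductal epithelial profile. Of the 18 genes of the ductal list, 16 passed the filter. The simple-epithelium keratins led: Krt8 was at 2789 ± 450, Krt18 at 2281 ± 278 and Krt19 at 1529 ± 238 TPM-like units (SD, n = 6). Each of these keratins differed by at most 1.68-fold between its lowest and highest tumour in CPM. Cldn18, a tight-junction claudin of gastric and pancreatic tumour epithelium, was at 415 ± 46.6 and Cdh1 (E-cadherin) at 408 ± 85.7 TPM-like units. Krt7 and Muc1, a keratin and a membrane mucin of ducts, were lower, at 198 ± 59.7 and 218 ± 86.8.

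Some surface genes of the same epithelium varied far more than the keratins. Epcam, which encodes an epithelial adhesion molecule, was at 29.9, 19.9, 134, 25.6, 11.0 and 54.3 CPM in WT_1 to WT_6. WT_3 was the highest and WT_5 the lowest, 12.1-fold apart. The claudin gene Cldn4 had 22.6 CPM in WT_3 and from 0.788 to 4.35 in the other tumours, and Cldn3 had 20.2 CPM in WT_3 and from 1.03 to 6.36 in the others. Cldn7, which missed the filter, was at 15.02 CPM in WT_3 and at 0.394 to 3.18 elsewhere. Prom1, a membrane glycoprotein gene of ducts, ranked among the 25 most variable genes, at 60.2, 17.7, 161, 75.9, 16.4 and 108 CPM. Across these junction and surface genes, named for their spread, the highest tumour was WT_3, and WT_5 was the lowest. Of the 16 kept ductal genes, 6 were highest in WT_3 and 6 in WT_1, against 20.3% and 21.4% of all kept genes. WT_5 was the lowest for 10 of the 16, against 18.2%. The score of the whole ductal list had a range of 1.29, and of 0.841 without WT_3.

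Several pancreatic and foregut transcription factor genes were expressed in every tumour. Hnf4a was at 156 ± 25.3, Foxa2 at 127 ± 25.1, Pdx1 at 111 ± 16.1, Sox9 at 80.2 ± 12.7 and Gata6 at 46.0 ± 8.37 TPM-like units (SD, n = 6). Pdx1 specifies pancreas in the embryo and Sox9 is the duct and progenitor factor. Of the 20 transcription factors listed, 12 passed the filter and none of the 12 reached a 4-fold difference between tumours. Over all kept genes 442 of 14419 (3.07%) did, so a count of 0 among 12 is near the background. The median SD of log2 CPM was 0.28 in this list and 0.19 over all kept genes. Ptf1a and Neurod1, the factors that drive acinar and endocrine differentiation, had 0 counts in all 6 tumours. The score of the list, the mean log2 CPM of its kept members, ranged from 4.91 in WT_3 to 5.18 in WT_1.

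Of the classical-subtype list, 10 of 20 genes in the table passed the filter and several were abundant. Ctse (cathepsin E, an aspartic protease of gastric epithelium) was at 499 ± 126, Tff2 (a trefoil peptide of mucous cells) at 497 ± 232 and Tspan8 (a tetraspanin) at 483 ± 83.2 TPM-like units. Lgals4, Krt20, Cdh17 and Anxa10, which are gut-type epithelial genes, ranged from 145 to 339 in the mean. The other 10 were low, at no more than 6.29 TPM-like units in the mean, among them the secretory genes Agr2 (1.29), Tff3 (0.75) and Reg4 (0.09). Tff2 was the least even of the abundant members, at 44.3, 80.0, 120, 69.4, 40.2 and 129 CPM, with WT_6 and WT_3 highest.

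The basal-like list was mostly low. Of its 19 genes, 8 passed the filter. Anxa8 (an annexin) was at 264 ± 33.9, Slc2a1 (the glucose transporter GLUT1) at 248 ± 112 and Tns4 (a focal adhesion adaptor) at 161 ± 30.3 TPM-like units. Krt7, which belongs to the ductal list too, was also high. The squamous genes that give the subtype its name were near 0: Krt17 stood at 0.0859 and Krt6a at 0.400 TPM-like units, and Sprr3 and Vgll1 had 0 counts in all 6 tumours. The classical score was lowest in WT_5 (5.62) and highest in WT_6 (6.33), and the basal-like score was lowest in WT_5 (5.02) and highest in WT_3 (5.79), so both lists had their minimum in the same tumour.

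**Figure D2:**
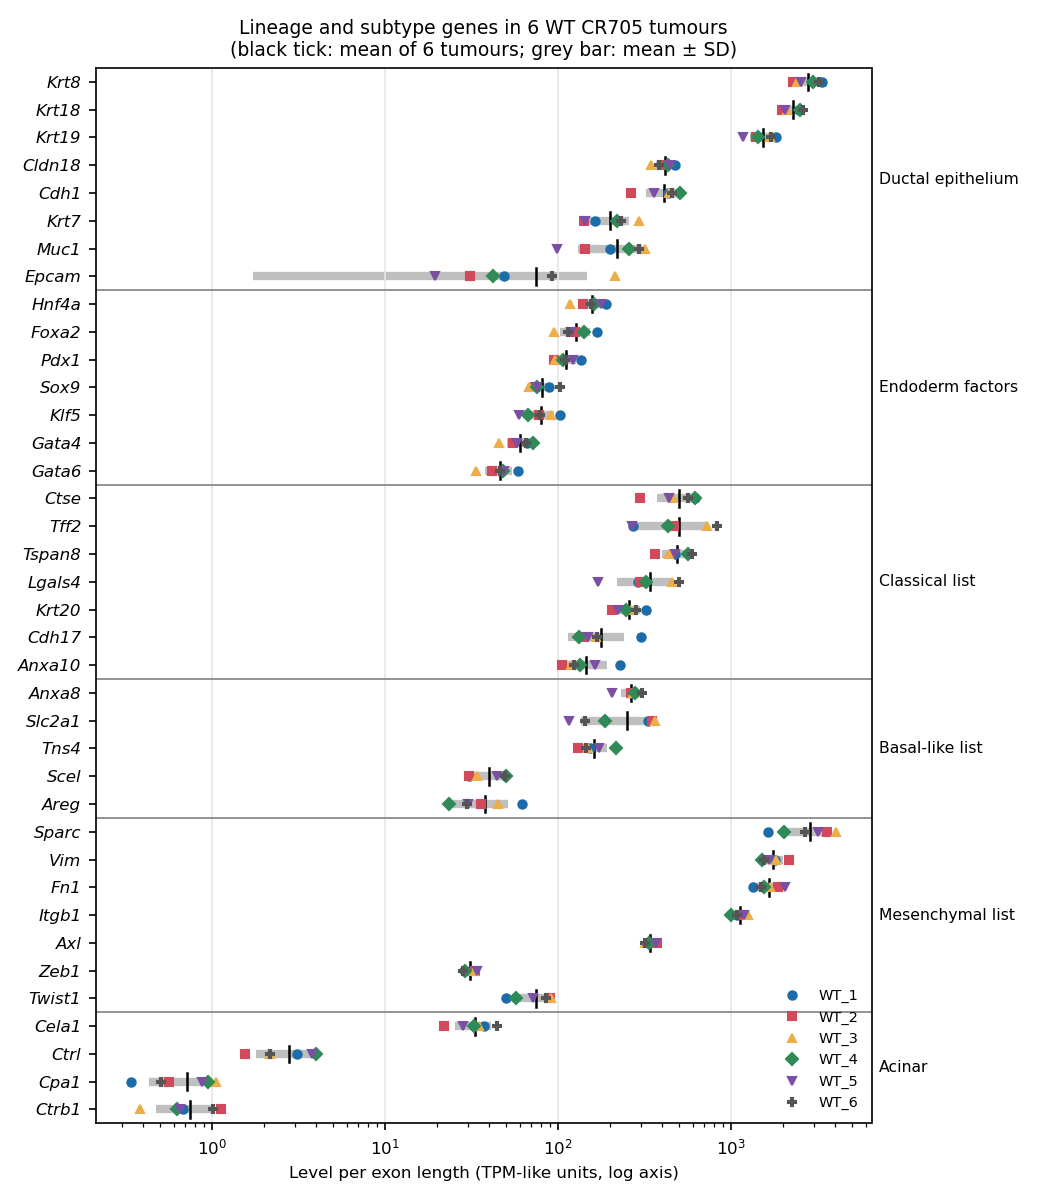
Levels per exon length of lineage and subtype genes in TPM-like units on a log axis, with 1 symbol per tumour, the mean as a tick and the SD as a bar. Keratins and classical-type genes lie far above the acinar genes, and Epcam is the most scattered of the ductal genes, highest in WT_3.

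Mesenchymal genes were all present: 17 of 17 passed the filter, led by Sparc, Vim (vimentin, 1748 ± 232 TPM-like units), Fn1 and Itgb1. Transcription factors of epithelial-mesenchymal transition were lower, with Twist1 at 73.9 and Zeb1 at 30.8 TPM-like units. The list's score was lowest in WT_1 (6.88) and highest in WT_2 (7.55). Fibroblasts also express these genes, so the level cannot be assigned to cancer cells.

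Genes commonly altered in pancreatic cancer were all expressed. All 11 passed the filter, and none reached a 4-fold difference, a count near the 3.07% of all kept genes that did. The median SD was 0.19 log2 CPM in the list, as over all kept genes. Cdkn2a was at 313 ± 42.1, Smad4 at 164 ± 8.11 and Trp53 at 132 ± 8.79 TPM-like units. Trp53 was at 135 to 155 and Smad4 at 155 to 187 CPM. The counts do not show the alleles. Ahr itself, the gene removed in the knockout tumours of the series, was at 114, 128, 115, 105, 109 and 101 CPM, and its known target Cyp1b1 was at 25.5, 59.8, 60.01, 28.8, 65.5 and 27.1 CPM. Cyp1b1 was higher in WT_2, WT_3 and WT_5 than in the other tumours. Other known targets had other orders. Tiparp was at 30.4, 44.2, 49.8, 26.4, 20.3 and 20.3 CPM, and Ahrr at 1.67, 2.21, 1.38, 1.37, 1.23 and 1.19 CPM. WT_5 and WT_6 were the lowest tumours for both.

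Normal exocrine and endocrine pancreas was almost absent from the profile. Of 16 acinar genes, only Cela1 (33.1 ± 7.77 TPM-like units) and Ctrl (2.78) passed the filter. Cpa1 and Ctrb1, the acinar carboxypeptidase and chymotrypsinogen genes, were below 0.75, and 3 acinar genes had 0 counts throughout. None of 14 islet genes passed, and 8 of them, among them Ins1 and Ins2, had 0 counts in every tumour. Chga, a granule protein gene of endocrine and neuroendocrine cells, was the highest of them, at 9.29 CPM in WT_3, 4.56 in WT_2 and 0.394 to 1.71 elsewhere.

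The proliferation score was 5.97 in WT_1 and from 6.19 to 6.31 in the other tumours. All 16 genes, among them Mki67, Top2a and Pcna, were lowest in WT_1, and with plain library totals 15 of the 16 were. Of all kept genes, 22.1% were lowest in WT_1. The size of the difference was small: Pcna (the replication clamp) was at 83.6 CPM in WT_1 and at 95.4 to 99.4 in the others, and none of the 16 reached a 2-fold difference, which 19.9% of all kept genes did.

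Fibroblast genes were abundant and differed between the tumours as a group. The fibroblast score was 7.74, 9.09, 9.14, 8.16, 8.51 and 8.51 log2 CPM in WT_1 to WT_6. For each of the 15 fibroblast genes, WT_2 and WT_3 were the 2 highest tumours, under TMM, plain totals and median-of-ratios scaling alike. The same 2 tumours were on top for 18.4% of all kept genes. WT_1 was the lowest for 13 of the 15, against 22.1% of all kept genes. The median gene SD was 0.54 log2 CPM in the list and 0.19 over all kept genes.

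Among the fibroblast genes, Pdgfra (a receptor of fibroblasts) was at 63.8, 180, 175, 104, 110 and 127 CPM. Dcn (decorin, a matrix proteoglycan) was at 95.1, 311, 355, 166, 184 and 225 CPM. Dpt (dermatopontin) had the largest spread, from 8.54 CPM in WT_1 to 69.8 in WT_3. Each of them had WT_2 and WT_3 above all other tumours. Among myofibroblast genes, Acta2 (smooth-muscle actin) had 199 CPM in WT_1 and 368 in WT_3, and none of 13 genes reached a 4-fold difference, a count near the background of 3.07%.

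In the inflammatory fibroblast list, 7 of 14 genes passed 4-fold, against 3.07% of all kept genes. Cxcl12, a chemokine that fibroblasts secrete, was at 21.6, 112, 98.5, 39.3, 42.0 and 40.7 CPM. C3, a complement gene, was at 138, 320, 614, 174, 236 and 197 CPM, and Il6, a cytokine gene, was between 0.912 and 5.53 CPM. WT_3 was the highest for 11 of the 14 genes, against 20.3% of all kept genes, and WT_1 the lowest for 9, against 22.1%.

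Of the 18 genes of the matrix and remodelling list, 12 had WT_2 and WT_3 as their top 2 (11 with plain totals), against 18.4% of all kept genes. Mmp3 (stromelysin 1) was at 30.3, 470, 463, 76.2, 113 and 97.6 CPM, a 15.5-fold range, or 6.08-fold without WT_1. Mmp13 (a collagenase) was at 48.4 CPM in WT_1, 331 in WT_2, 101 in WT_3 and 33.0 to 64.8 in WT_4 to WT_6. Mmp3 was therefore high in WT_2 and WT_3, and Mmp13 in WT_2. Mmp9, a gelatinase gene, had another order, with 411 CPM in WT_1 and 197 in WT_2. Several other genes of the 25 with the largest spread moved in the same way: Ptx3 (pentraxin 3) was at 20.6 CPM in WT_2 and 51.3 in WT_3 against 2.47 in WT_1, and Saa3 (an acute-phase serum amyloid gene) at 94.7 and 124 against 17.0.

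Genes of vessels and perivascular cells had the same tumours on top. The endothelial score was 4.70, 5.90, 5.83, 4.88, 5.16 and 5.32, and for 15 of 17 genes WT_2 and WT_3 were the top 2, beside the 18.4% over all kept genes. Pecam1, an adhesion molecule of endothelium, had 51.7, 150, 136, 60.8, 69.0 and 90.4 CPM. The pericyte and smooth muscle score was 4.37, 5.52, 5.64, 4.50, 4.69 and 4.82. Rgs5, a pericyte regulator of G-protein signalling, was at 26.5 CPM in WT_1 and 102 in WT_3.

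General leukocyte genes also had WT_2 and WT_3 on top. The pan-leukocyte score was lowest in WT_1 (3.96) and highest in WT_2 (4.93). Of its 14 genes, 12 had WT_2 and WT_3 as their top 2, against 18.4% of all kept genes. Ptprc, the gene for CD45, was at 23.0, 39.9, 41.5, 30.6, 33.8 and 24.8 CPM. By level, the immune part of the profile was of macrophage type. Apoe was at 1580 ± 514, Lyz2 at 1231 ± 359, C1qa at 458 ± 144, Arg1 at 317 ± 89.0 and Mrc1 at 89.1 ± 25.8 TPM-like units (SD, n = 6). Apoe and Lyz2 are not restricted to macrophages, while the complement gene C1qa and the mannose receptor gene Mrc1 are closer to it.

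Macrophage genes ran from lowest in WT_1 to highest in WT_2, with scores of 5.41, 6.54, 6.52, 5.76, 5.96 and 6.03. Adgre1, which encodes F4/80, was at 13.8, 37.6, 48.9, 19.0, 25.6 and 30.2 CPM. Cd163, a scavenger receptor gene of resident-type macrophages, was at 8.46, 43.7, 58.3, 15.5, 16.4 and 32.0 CPM, a 6.84-fold range. Of the 20 kept macrophage genes, 17 had WT_2 and WT_3 as their top 2, against 18.4% of all kept genes. With plain library totals this count was 15. Of the same 20 genes, 2 passed 4-fold, against 3.07% of all kept genes.

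Dendritic and mast-cell genes were low. The dendritic-cell score was lowest in WT_1 (2.33) and highest in WT_3 (3.495), and Clec10a, a lectin gene that macrophages share, had 1.84, 23.5, 17.7, 6.74, 5.76 and 12.2 CPM. Xcr1, the marker of cross-presenting dendritic cells, had at most 0.304 CPM. The mast-cell and eosinophil score was 1.17 in WT_1 and 2.88 in WT_2, with the protease gene Tpsb2 at 1.59, 14.9, 7.53, 3.65, 2.46 and 3.75 CPM. By score, WT_2 and WT_3 were the top 2 in both lists and WT_1 the lowest.

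Neutrophil genes had a different order. The score was 3.64, 3.21, 4.44, 2.21, 2.995 and 2.42, highest in WT_3, second in WT_1 and lowest in WT_4. Of the 10 kept genes, 9 passed 4-fold, against 3.07% of all kept genes. The range of the score was 2.23, and 1.43 without WT_3. S100a8 (a calgranulin) was at 8.92, 3.40, 13.7, 1.37, 4.73 and 2.66 CPM. Cxcr2, the neutrophil chemokine receptor gene, was at 4.69, 2.44, 10.5, 1.57, 3.40 and 1.23 CPM. Ly6g, a defining marker of mouse neutrophils, had at most 0.286 CPM in any tumour. Mmp9, which the list shares with other myeloid cells, was at 411, 197, 398, 109, 393 and 77.6 CPM. Haemoglobin genes were also highest in WT_3, with Hbb-bs at 51.1 CPM against 5.41 to 13.1 in the other tumours. Whether blood left in the tissue takes part in the neutrophil values was not tested.

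Most lymphocyte genes were low. The T-cell receptor complex genes Cd3e, Cd3d and Cd3g were at or below 1.98 CPM in every tumour. Cd4, which macrophages can also express, was at 1.72 to 4.77 CPM. Cd8a had 3.70 CPM in WT_4 and from 0 to 0.174 in the others. Tcf7, a transcription factor gene of the T-cell list that other cells also express, was higher, at 31.96 to 39.95 CPM. The B-cell genes Ms4a1 and Pax5 were at or below 0.167 CPM throughout. Of the natural-killer markers, Ncr1 had at most 0.620 CPM and Klrb1c at most 1.38.

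Antibody genes were among the most uneven of all, although B-cell genes were near 0. Ighm, the immunoglobulin M heavy-chain constant gene, had 4.40, 225, 69.4, 10.8, 39.1 and 185 CPM, a 50.1-fold range and the largest excess of SD over the trend among kept genes. WT_2 and WT_6 were highest and WT_1 lowest. Without WT_1 the range was 20.3-fold. The counting interval for Ighm was 3.60 to 5.32 CPM in WT_1 and 220 to 230 in WT_2 (95%, exact Poisson, counting error only). Igkc, the kappa light chain, had 2.01, 63.1, 29.7, 7.34, 12.7 and 55.3 CPM, and Jchain, which joins the chains of secreted antibody, 0.586, 13.8, 6.91, 1.11, 3.59 and 15.5 CPM. All 3 genes had the same 2 tumours on top.

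Other heavy-chain classes differed between tumours. Ighg1 had 11.5 CPM in WT_4 and at most 0.295 elsewhere. Per length, Ighg1 in WT_4 was at 16.0 TPM-like units, below Ighm at 20.8. Ighg2b had 3.45 CPM in WT_5 and at most 0.203 elsewhere, and Igha had 9.82 CPM in WT_3. Ighg2c had 5.81 CPM in WT_2, 3.74 in WT_5, 2.23 in WT_6 and at most 0.203 in the others. In CPM, which leaves gene length out, each of these values outside WT_4 was below the Ighm level of the same tumour. Genes of the immunoglobulin, haemoglobin, class I and granzyme families have close copies that can share reads, so their single values are uncertain.

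**Figure D3:**
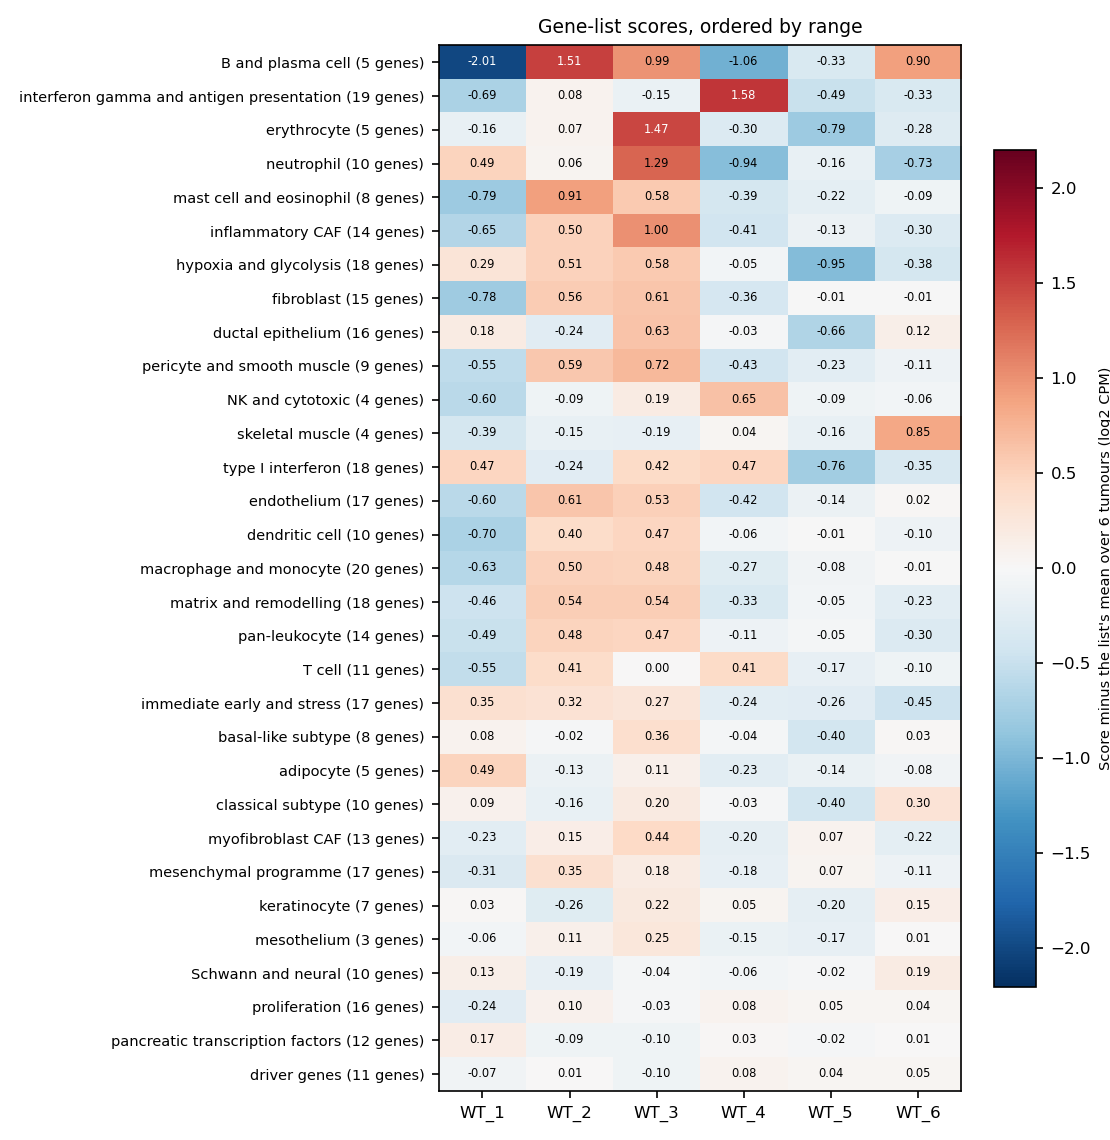
Score of each of 31 gene lists in each tumour (columns) as the difference from the list's mean over the 6 tumours in log2 CPM, with the number of kept genes in brackets and lists ordered by their range. Stromal, endothelial and macrophage lists are red in WT_2 and WT_3 and blue in WT_1, the interferon-gamma list is red in WT_4, and the hypoxia list is blue in WT_5.

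Over the 31 scored lists, WT_1 was the lowest tumour for 17 and WT_5 for 7. WT_3 was the highest for 12 and WT_2 for 8, and in 15 lists WT_2 and WT_3 were the top 2. Lists overlap in part and move together, so these counts are not independent.

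WT_4 stood apart by interferon-gamma genes. Interferon gamma, made by T and natural-killer cells, induces guanylate-binding proteins, immunity-related GTPases, chemokines that bind CXCR3, and the genes of antigen presentation. The list's score was 6.17 in WT_4 and 3.90 to 4.68 in the other tumours, and without WT_4 its range was 0.77 in place of 2.27. WT_4 was the highest tumour for all 19 kept genes, under TMM, plain totals and median-of-ratios scaling alike. Over all kept genes, WT_4 was highest for 15.2%. Of the 19, 14 had a range of 4-fold or more, against 3.07% of all kept genes, and the median SD in the list was 0.89 against 0.19 overall.

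Iigp1, Gbp2 and Tgtp2 encode interferon-induced GTPases. Iigp1 had 9.88, 10.8, 7.77, 167, 5.07 and 11.2 CPM. Gbp2 had 10.1, 13.3, 10.1, 134, 10.1 and 16.6 CPM, and Tgtp2 had 2.93, 2.32, 2.53, 29.7, 1.58 and 2.47. Each of these is a cell-autonomous defence gene, and in each WT_4 lay far above 5 tumours that were close to one another. The chemokine gene Cxcl9 had 2.81, 3.66, 1.81, 43.4, 3.40 and 4.22 CPM. Cxcl11 and Ubd missed the filter, with 5.57 and 4.86 CPM in WT_4 and at most 0.569 in any other tumour.

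Genes of antigen presentation were among the 19. B2m, the light chain of class I molecules, had 283, 320, 311, 727, 273 and 255 CPM. H2-K1, a class I heavy chain, had 352, 363, 319, 984, 210 and 244 CPM. Tap1, the peptide transporter, had 77.6 CPM in WT_4 and 14.3 to 22.8 in the others. Class II genes were ordered otherwise below the top tumour: Cd74, the invariant chain, had 41.2, 180, 123, 216, 73.3 and 100 CPM, so WT_4 and WT_2 were close and WT_1 was low.

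Among all 14419 kept genes, 12 were at least 4 times higher in WT_4 than in every other tumour (0.0832%). They were Gbp2, Gbp3, Gbp4, Iigp1, Igtp, Tgtp2, Cxcl9, Batf2, Nlrc5, AW112010, Gm4951 and Gm43302. Nlrc5, the activator of class I genes, had 79.8 CPM against 9.58 to 16.2, and Igtp 47.9 against 3.79 to 6.89. Only 2 other genes met the same rule in another tumour, Cldn4 in WT_3 and Gkn2 in WT_6. These genes were chosen after their values were seen.

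The promoters of 4 of these genes are printed as examples of windows that hold a motif of interferon response. They were chosen for that and do not represent the 12 genes. They are RefSeq promoter windows (GRCm38.p6), 250 bases before to 50 after the annotated start, 5′ to 3′ on the gene's strand. Both strands were searched for the letters GAAANNGAA, the core of the interferon-stimulated response element, and TTCNNNGAA, the gamma-activated site. Capitals mark any match to either motif.
Gbp2 (chr3:142620413-142620712, plus strand): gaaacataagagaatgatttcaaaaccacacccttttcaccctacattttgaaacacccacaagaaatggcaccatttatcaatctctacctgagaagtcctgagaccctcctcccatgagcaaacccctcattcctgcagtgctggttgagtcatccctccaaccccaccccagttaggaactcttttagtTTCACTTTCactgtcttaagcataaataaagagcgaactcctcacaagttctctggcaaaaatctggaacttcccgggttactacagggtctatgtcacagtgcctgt
Cxcl9 (chr5:92328030-92328329, minus strand): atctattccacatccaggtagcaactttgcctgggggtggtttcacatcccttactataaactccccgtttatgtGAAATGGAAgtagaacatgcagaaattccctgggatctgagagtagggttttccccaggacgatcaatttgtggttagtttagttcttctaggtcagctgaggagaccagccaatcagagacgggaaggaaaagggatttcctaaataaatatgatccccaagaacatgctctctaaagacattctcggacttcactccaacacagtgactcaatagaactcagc
Igtp (chr11:58199306-58199605, plus strand): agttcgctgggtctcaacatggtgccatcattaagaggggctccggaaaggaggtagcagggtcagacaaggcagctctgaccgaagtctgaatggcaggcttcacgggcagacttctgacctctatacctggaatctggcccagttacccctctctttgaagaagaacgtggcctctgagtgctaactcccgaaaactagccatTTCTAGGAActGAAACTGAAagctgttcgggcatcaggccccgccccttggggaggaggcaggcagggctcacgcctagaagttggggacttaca
Tgtp2 (chr11:49064163-49064462, minus strand): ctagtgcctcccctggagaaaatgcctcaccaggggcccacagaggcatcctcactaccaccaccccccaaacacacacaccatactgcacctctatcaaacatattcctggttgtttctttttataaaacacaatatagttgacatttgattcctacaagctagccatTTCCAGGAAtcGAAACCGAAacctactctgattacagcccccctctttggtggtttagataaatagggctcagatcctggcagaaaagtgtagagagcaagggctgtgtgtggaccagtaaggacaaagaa

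Of the 12 genes, 6 had an entry in the promoter table, with 7 windows. The response element core was in 5 of the 7 windows, those printed above and 1 of the 2 windows of Gbp3, and in 8.56% of all 32851 windows. The gamma-activated site was in 2 of the 7, Igtp and Tgtp2, and in 8.30% of all windows. In Igtp the 2 motifs begin at -45 and -34 from the start and in Tgtp2 at -81 and -70. In each of these promoters the gamma-activated site therefore comes just before the response element. A match is a description of letters and not a measured binding site.

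WT_4 was also the highest tumour for the T-cell score (1.54, beside 1.53 in WT_2) and the natural-killer and cytotoxic score (1.44, against 0.19 to 0.98 in the others). Only 4 of the 14 natural-killer and cytotoxic genes passed the filter. Of these 4, 3 were highest in WT_4, as were 6 of 11 kept T-cell genes, against 15.2% of all kept genes. Another 4 of the 11 were highest in WT_2, against 17.4%. Cd8a, Cd8b1, Gzma, Nkg7 and Klrd1 had their highest level in WT_4, at 3.70, 1.16, 2.18, 1.98 and 2.53 CPM. These genes are markers of CD8 T cells and killer cells. Other killer genes had similar levels in WT_3 and WT_4: Prf1 (perforin) had 7.87 CPM in WT_3 and 6.94 in WT_4, Gzmg 22.8 and 22.1, and Gzmb 5.86 and 6.28. The interferon-gamma score of WT_3 was 4.44. The part of these cells in the interferon-gamma values was not tested. Macrophage and fibroblast scores in WT_4 were, by contrast, second lowest.

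Type I interferon genes did not set WT_4 apart in the same way. The score was 3.05 in both WT_1 and WT_4, 2.996 in WT_3, 2.34 in WT_2, 2.23 in WT_6 and 1.82 in WT_5. Ifit3 was at 11.2, 4.82, 6.24, 8.96, 2.17 and 4.89 CPM. WT_5 was the lowest for 16 of 18 genes, and for 14 with plain library totals, against 18.2% of all kept genes. Without WT_5 the range of the score was 0.822 in place of 1.24.

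**Figure D4:**
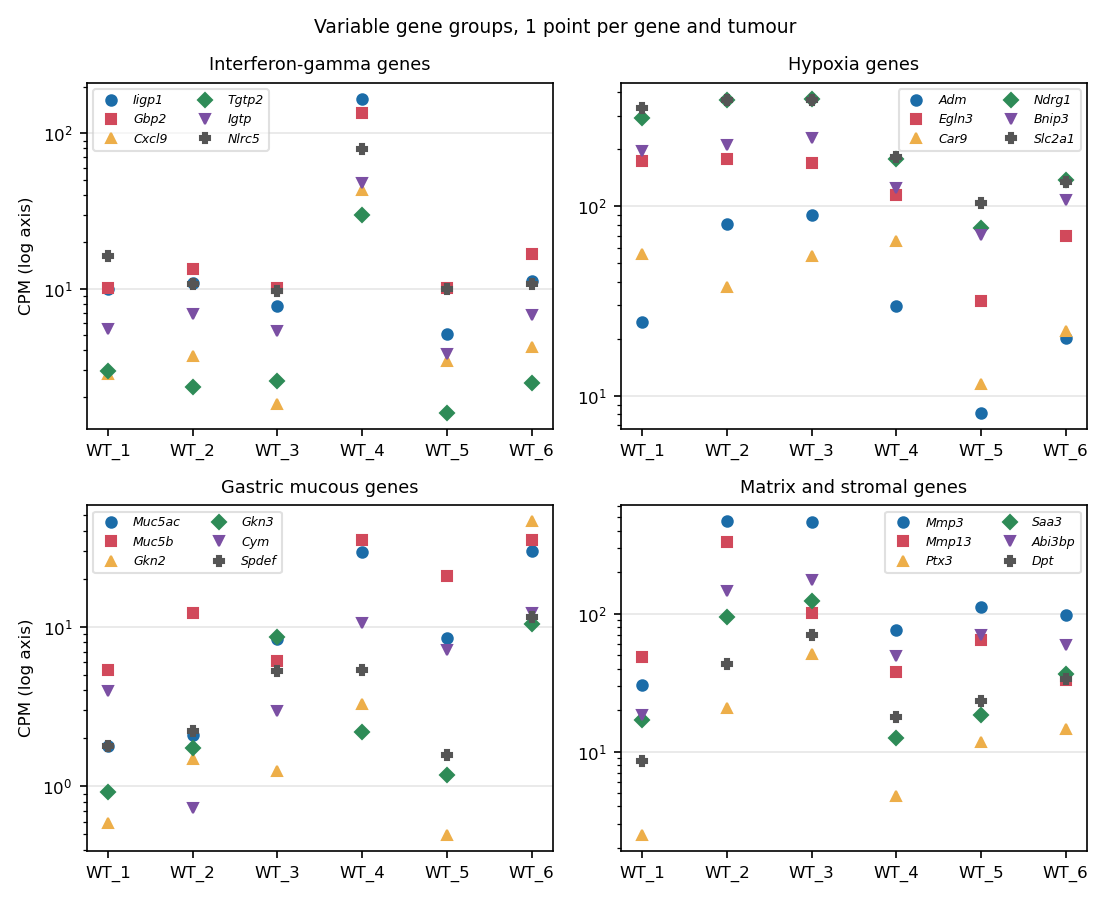
Levels of 4 groups of variable genes in the 6 tumours, in CPM on a log axis, with 1 symbol per gene and tumour. The interferon-gamma genes are high in WT_4 alone, the hypoxia genes lowest in WT_5, and the matrix genes high in WT_2 and WT_3.

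WT_5 was lowest in hypoxia and glycolysis genes, which rise when oxygen is low. It was the lowest tumour for all 18 genes, under each of the 3 scalings, against 18.2% of all kept genes. The score was 7.93, 8.16, 8.23, 7.59, 6.70 and 7.26, with WT_6 the next lowest. The range of the score was 1.53, or 0.964 without WT_5. Adm (adrenomedullin, a vasodilator peptide) had 24.6, 80.7, 90.3, 29.8, 8.12 and 20.3 CPM. Egln3, an oxygen-sensing hydroxylase, had 174, 176, 168, 114, 31.8 and 69.7 CPM, and Vegfa, the vessel growth factor, had 716, 836, 866, 442, 323 and 434.

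The score of the immediate early and stress list was also lower in WT_4 to WT_6, at 6.12, 6.09, 6.04, 5.53, 5.52 and 5.32. Of its 17 genes, 2 reached 4-fold, against 3.07% of all kept genes. The stress gene Atf3 was at 32.8, 25.4, 28.5, 15.7, 6.65 and 7.54 CPM and Hspa1b at 147, 73.3, 121, 49.7, 40.02 and 40.05. Both genes respond quickly to cell stress. WT_5 had, on the other hand, the highest level of Hp (haptoglobin), at 63.3, 44.7, 35.9, 7.75, 161 and 30.6 CPM, and WT_4 had the lowest.

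WT_6 and WT_4 were the 2 highest tumours for several genes of gastric epithelium. Muc5ac, the gel-forming mucin of stomach surface cells, had 1.80, 2.09, 8.34, 29.6, 8.56 and 29.9 CPM. Muc5b, a related mucin, had 5.40, 12.2, 6.10, 35.0, 20.8 and 35.1. Cym (chymosin, a gastric protease) had 3.94, 0.726, 2.96, 10.5, 7.14 and 12.3. In these 3 genes WT_6 and WT_4 were the top 2. Other gastric genes had other orders: Tff2, given above, and Gkn3, a gastrokine gene at 10.4 CPM in WT_6 and 8.68 in WT_3, had WT_6 and WT_3 on top, and Ctse was highest in WT_1, at 550.1 CPM. Gkn2 (gastrokine 2) was highest in WT_6, at 46.2 CPM against 0.492 to 3.29, an 80.1-fold range, or 5.86-fold without WT_6. Gkn1, which missed the filter, had 31.5 CPM in WT_6 and 0.345 to 4.36 elsewhere. The gastric list was added after these values were seen; 7 of its 10 kept genes were highest in WT_6, against 10.9% of all kept genes.

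Most genes were even across the 6 tumours. The median gene had an SD of 0.19 log2 CPM and a highest tumour 1.40 times the lowest, 2876 of 14419 genes (19.9%) reached 2-fold and 442 (3.07%) reached 4-fold. The genes above the trend of SD on level included secreted, immune and epithelial surface genes, beginning with Ighm, Gkn2, Serpinb2, Igkc and Iigp1. Serpinb2, an inhibitor of plasminogen activators made by macrophages and epithelium, had 1.88, 18.7, 61.7, 1.92, 3.99 and 11.7 CPM. Of the 200 genes with the largest excess over the trend, 48.0% had their highest level in WT_3, against 20.3% of all kept genes, and 35.0% had their lowest in WT_1, against 22.1%.

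**Figure D5:**
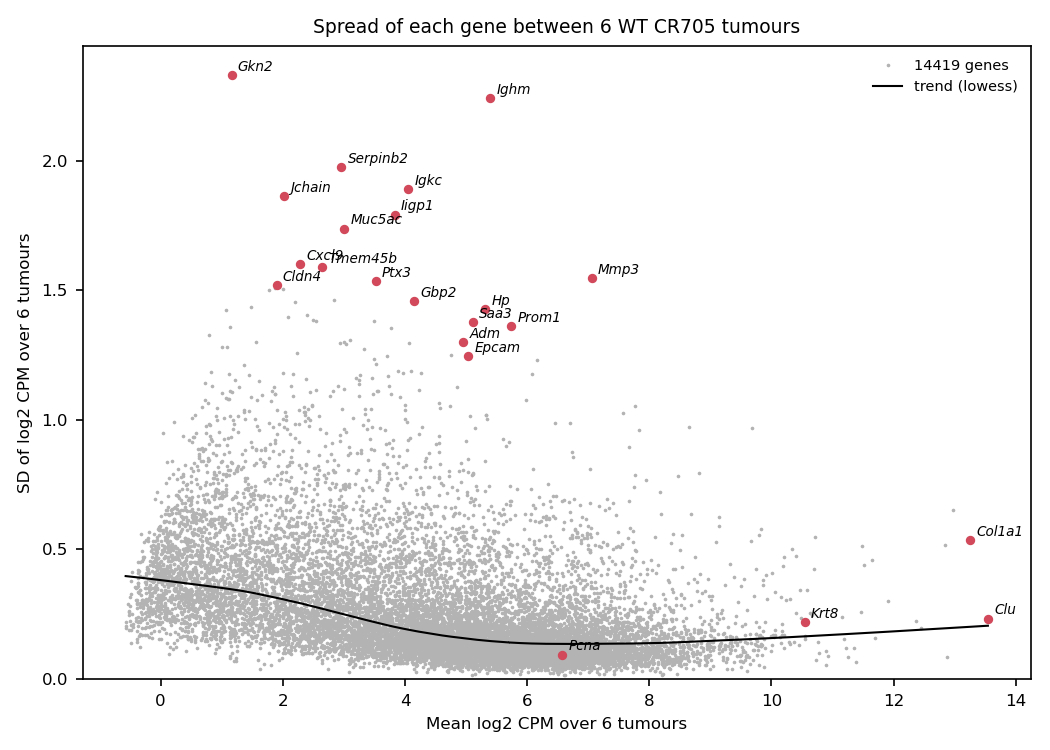
SD of log2 CPM over the 6 tumours against the mean log2 CPM for 14419 kept genes, with the lowess trend as a line and named genes in red. Ighm and Gkn2 lie highest, Clu and Krt8 lie near the trend at high level, and Pcna lies below it.

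In principal components of the 1000 genes with the largest excess spread, the first component held 45.2% of the variance and the second 20.8%. On the first, WT_3 (24.4) and WT_2 (18.6) lay opposite WT_1 (-15.9) and WT_4 (-15.6), with WT_5 and WT_6 between. Over all kept genes the libraries were alike, with Spearman correlations from 0.976 (WT_1 and WT_3) to 0.992 (WT_4 and WT_6), as a description of 15 pairs. In the check for a library deposited more than once, chi-squared per degree of freedom ran from 14.2 to 85.9 over the 15 pairs, and no pair was treated as 1 library.

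The filter needs reads in all 6 tumours and so removes genes that a tumour lacks. With the rule of at least 5 CPM in 1 tumour, which was added after the data were seen, 39 genes outside the filter entered, and 10 of the 25 most variable genes were among them. Chil4, a chitinase-like protein gene, led them with 1.09, 6.77, 8.39, 192, 0.295 and 219 CPM. It was high in WT_4 and WT_6, the tumours with the most Muc5ac and Muc5b. The granzyme genes Gzmg and Gzmf had 22.8 and 17.0 CPM in WT_3, 22.1 and 21.4 in WT_4 and at most 7.21 elsewhere. Esrp1, a splicing factor of epithelial cells, had 2.64, 1.37, 17.3, 0.962, 0.0984 and 3.61 CPM, the order of Epcam at both ends. Ido1, an interferon-induced enzyme, had 6.58 CPM in WT_4 and at most 0.436 elsewhere.

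Some fat-cell genes were higher in WT_5. Cfd (adipsin) had 50.6 CPM there and 0.456 to 10.2 elsewhere, Car3 had 21.6 against 0.354 to 5.27, and Adipoq (adiponectin) had 6.69 against 0.101 to 1.005. All 3 are abundant in adipocytes, missed the filter and were chosen after their values were seen. The 5 adipocyte-list genes that passed gave another order: the score was highest in WT_1 (4.796) and was 4.17 in WT_5. Of these 5 genes 4 were highest in WT_1, against 21.4% of all kept genes, and Fabp4, a fatty-acid binding protein gene, in WT_5. Of 18 skeletal muscle genes only 4 passed the filter, and these 4 were highest in WT_6, against 10.9% of all kept genes. Acta1 had 3.18 CPM in WT_6 against 0.0984 to 0.477, and Ryr1 3.65 against 0.246 to 1.11. Ckm, a defining muscle marker, had at most 0.0984 CPM, so muscle tissue cannot be named from these genes. Of 14 keratinocyte genes 7 passed the filter, and the score ran from 2.81 to 3.29. Krt14, a basal keratin gene, had 13.6, 16.5, 35.3, 22.2, 11.1 and 39.8 CPM, while Krt1 and Flg had 0 counts and Krt5, its usual partner, at most 0.238 CPM.

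A few genes were high without the rest of their marker list. Msln (mesothelin), which pancreatic cancer cells commonly express, was at 1140 ± 188 TPM-like units, while Upk3b, Lrrn4 and Upk1b, other mesothelial genes, were below 0.5. Tnni2, a fast-muscle troponin, was at 78.5 ± 17.2 while Ckm and Myh2 were below 0.1. Xist, the RNA that silences an X chromosome, was at 1554, 1208, 1192, 2394, 2197 and 1733 CPM, and the Y-linked genes Ddx3y, Eif2s3y, Kdm5d and Uty had 0 counts in all 6 tumours.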

How the data were processed

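Per the labels' protocols, mRNA was selected with poly-T beads and sequenced on an Illumina instrument. Per the submitters' processing notes, reads were handled with HISAT2, SAMtools and HTSeq on mm10, and DESeq2 is named too. For versions, annotation, strand setting and filters, nothing is given in the sources used here. The authors deposited raw read counts per gene.

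Symbols, positions and exon lengths came from GENCODE release M21, which matched 42548 of 43432 genes; 884 had none. The 6 libraries were filtered and scaled alone with edgeR 4.0.16 (filterByExpr, TMM; R 4.3.3), with DESeq2 1.42.0 for alternative scaling. Logarithms use a prior count of 2. Excess SD is the SD of log2 CPM less a lowess trend (span 0.3). No test between groups was made. Dixon's rule was applied to values over the 6 tumours, and a chi-squared per pair of libraries served to look for duplicates. The spread given is between samples, which may be technical in part.

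Genes named were the 15 most counted and the 25 with the largest excess SD at a mean log2 CPM of at least 1. Up to 4 leading members and the most variable member of each of 34 lists were named, with all driver, transcription factor and subtype genes. These rules passed over predicted genes with a model number only, pseudogenes and variable segments of antigen receptor genes. Gm42418, with a mean of 3042 CPM and rank 11, was so left out of the 15 most counted. Other named genes were chosen after their values were seen. Members and lists were chosen with earlier results of these data known. Listed symbols without a row (Fam3d, Ctgf, Ahsp, Gbp5) were not analysed here. Scripts were tested on simulated data.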

Additional observations from a re-analysis of the deposited data

Results flagged for a closer look

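In each group of 6 samples, a value is listed here when its gap to the nearest other tumour is a larger part of the whole range than Dixon's 95% critical value. Among 31 list scores, 168 genes and the library totals, 15 met it. Chance alone lists about 1 in 20 groups, so a large part of these can be chance. The 168 genes include those named for their large spread in these same values, so that rate need not hold for them.

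Of these values 7 belong to interferon-gamma genes and lie in WT_4. They are the list's score (6.17 against 3.90 to 4.68), Iigp1 (167 CPM against 5.07 to 11.2), Gbp2 (134 against 10.1 to 16.6), Cxcl9 (43.4 against 1.81 to 4.22), Tgtp2 (29.7 against 1.58 to 2.93), B2m (727 against 255 to 320) and H2-K1 (984 against 210 to 363). Tns4, a focal adhesion adaptor, was also high in WT_4, at 310 CPM against 198 to 231.

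WT_1 had the lowest proliferation score (5.97 against 6.19 to 6.31) and the lowest Pcna level (83.6 CPM against 95.4 to 99.4). WT_3 had the lowest Cdkn2a level (77.7 CPM against 99.3 to 112) and the highest Hbb-bt level (5.05 against 0.76 to 1.54), a haemoglobin gene. WT_5 had the lowest Anxa8 level, 99.0 CPM against 138 to 154. WT_6 had the highest skeletal muscle score, 2.73 against 1.49 to 1.92, which rests on 4 of 18 listed genes. The library total of WT_2, 35881469 counts, was above the others, which lay between 19293174 and 23901486.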

How the results depend on the processing

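No paired analysis was possible because no groups were compared. Over the settings other than leaving out a tumour, 141 of 147 values kept within the spread between tumours or within 1.5 times. The other 6 did not. When each tumour was left out in turn, 218 of 252 values kept within these limits and 34 did not. The range of the B and plasma cell score was 3.52, and 1.94 with no filter on low counts. That of the erythrocyte score was 2.26, and 3.08 with the median of the genes in place of their mean. The number of genes with a 4-fold range was 442, and 2073 with no filter on low counts. It was 384 with the rule of 5 CPM in 1 tumour, added after the data were seen. The summed level of Krt7, Krt8, Krt18 and Krt19 was 6797 TPM-like units and 3594 CPM, which is another unit. The share of the 10 leading genes was 6.79% by CPM and 12.6% when ranked per length, where Gm23935, an annotated RNA of 57 bases, led. Ranked by biological coefficient of variation, 14 of the 25 most variable genes were shared.

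Leaving out each tumour in turn gave 313 to 415 genes with a 4-fold range, a fibroblast score range of 0.968 to 1.40, a first component of 41.6% to 54.2%, keratin sums of 6600 to 7003 and top-gene shares of 6.60% to 6.96%. Without WT_4 the range of the interferon-gamma score was 0.77 in place of 2.27, that of Iigp1 was 2.199-fold in place of 32.5 and that of Gbp2 1.64-fold in place of 13.2. Without WT_3 the range of the ductal score was 0.841 in place of 1.29 and that of Cldn4 5.10-fold in place of 26.0. The range of the erythrocyte score was then 0.864 in place of 2.26. Without WT_6 the range of Gkn2 was 5.86-fold in place of 80.1, and without WT_1 that of Ighm was 20.3-fold in place of 50.1.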

Other observations

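Some genes of multinucleated osteoclast-type macrophages were highest in WT_5. Dcstamp and Ocstamp, which drive cell fusion, were at 2.14, 1.39, 4.15, 1.32, 6.20 and 0.76 CPM and at 2.85, 1.19, 5.24, 1.72, 6.40 and 1.28 CPM in WT_1 to WT_6. Both were highest in WT_5, then WT_3, then WT_1, with WT_2, WT_4 and WT_6 below. Acp5, the tartrate-resistant phosphatase gene, was at 91.7, 48.3, 103, 47.3, 121 and 43.0 CPM, and Atp6v0d2, a proton pump subunit gene, at 9.30, 5.78, 10.9, 4.10, 14.7 and 3.65 CPM. The same 3 tumours were above the other 3 for each of these genes. Of 8 kept genes in this list, which was made after the values were seen, 4 were highest in WT_5 and 6 lowest in WT_6, against 14.9% and 12.4% of all kept genes. The others had other orders: the integrin gene Itgb3 was highest in WT_2 (159 CPM) and lowest in WT_1 (77.6), Mmp9 was highest in WT_1, and Ctsk and Nfatc1 were highest in WT_3, at 206 and 82.6 CPM. Calcr, the calcitonin receptor gene of mature osteoclasts, had at most 0.209 CPM.

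Il5ra, an interleukin 5 receptor gene of eosinophils, had 13.5 CPM in WT_5 and 14.5 in WT_6, and 1.93 to 3.44 in the other 4 tumours. The eosinophil granule genes Epx and Prg2 had at most 0.0477 and 0.465 CPM. These genes were chosen after their values were seen.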
